A study of Mus musculus with 6 samples.

Results

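The genes described here encode the proteins of the cytosolic ribosome in mouse melanoma cells. They were taken by name from the deposited count files: every gene whose symbol begins with Rpl or Rps and a number, together with Rpsa, Rplp0, Rplp1 and Rplp2, without the Rps6k kinases and without rows named as pseudogenes (-ps). The rule found 88 of the 24391 genes in the files. Of these, 34 belong to the small (40S) subunit and 53 to the large (60S) subunit. The remaining gene, Rps19bp1, encodes a protein that binds a ribosomal protein and the deacetylase SIRT1 and is no structural part of the ribosome. Among the 88, 8 carry names of paralogs, ending in l or l1 (Rpl3l, Rpl7l1, Rpl10l, Rpl22l1, Rpl36al, Rpl39l, Rps4l and Rps27l).

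The ribosome is built from ribosomal RNA and a set of ribosomal proteins, and most ribosomal protein genes are expressed strongly in every growing cell. Their mRNAs share a 5' terminal oligopyrimidine (TOP) tract, a C followed by an unbroken run of C and T at the transcription start, through which the kinase mTOR and the RNA-binding protein LARP1 control their translation and storage. Free ribosomal proteins also act outside the ribosome, the best known case being Rpl5 and Rpl11, which bind Mdm2 and so stabilise p53.

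RNA sequencing compared 3 libraries of tumour cells with intact Kmt2d (KMT2D WT) with 3 libraries of cells from mice with floxed Kmt2d (KMT2D KO). The product of Kmt2d is an enzyme that methylates histone H3 at lysine 4, mainly at enhancers. Both groups came from the iBIP melanoma model on a mixed FVB and B6 background, which carries Tyr-CreERT2, Rosa26-rtTA and TetO-BRAFV600E with homozygous floxed tumour suppressor alleles, among them INK/ARF. CreERT2 is driven there by the tyrosinase promoter of pigment cells, and both groups of mice received doxycycline and 4-OHT on the ears to form tumours. The groups differed in the Kmt2d alleles, which were KMT2D+/+ in the WT group and KMT2D L/L in the KO group. Whether replicate libraries came from separate cultures, tumours or mice is not given, so p-values measure only the spread between libraries, which may be technical, and genotype and tumour of origin cannot be told apart. The extraction protocol in the labels names cerebellar tissue, whereas the other labels name tumour cells.

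Total counts were between 43168605 and 59360068 in the WT libraries and between 55594979 and 79718782 in the KO libraries. Levels are given as CPM, the count relative to the size of the library in millionths, computed on library sizes multiplied by TMM factors of 1.0365 to 1.0436 (WT) and 0.9568 to 0.9674 (KO). Whole-gene counts of Kmt2d were 79.7, 87.6 and 101 CPM in WT replicates 1, 2 and 3 and 73.0, 69.3 and 79.8 CPM in KO. The libraries overlapped, since KO replicate 3 lay above WT replicate 1, and the log2 difference was -0.27 ± 0.08 (SE; adjusted p = 0.0075, edgeR quasi-likelihood test), with an adjusted p of 0.058 once KO replicate 2 was left out. The counts cover the whole gene (mm9 chr15:98662100-98701636, minus strand), so the floxed part was not seen separately. Of 12 melanocyte markers 5 were tested, 3 of which (Mitf, Gpnmb and Mlana) were called higher in KO and none lower. Tyr, Tyrp1 and Dct were at most at 0.0765 CPM in either group mean and Sox10 at most at 0.444 CPM. Mitf stood at 15.4 CPM in WT and 53.2 CPM in KO, Gpnmb at 425 and 617 CPM, and Mlana at 0.0507 and 0.360 CPM. The summed level of 10 fibroblast markers ran from 6017 to 6282 CPM (of the unscaled total, as for all sums over lists) in WT and from 20790 to 21640 in KO, with 7 of 10 called higher and 3 lower (adjusted p under 0.05, edgeR). Of 10 immune markers, 5 were called lower and none higher among 6 tested, with sums between 12.5 and 21.4 CPM in WT and between 4.39 and 5.42 in KO. These marker calls stand beside 35.4% of all tested genes called higher and 35.5% called lower. The 8 keratinocyte markers summed to at most 24.1 CPM in WT and 74.6 in KO, and the 10 cerebellum markers to at most 1.20 and 4.80. Among the keratinocyte markers, Perp and Trp63 were called higher, with TMM-scaled KO means of 57.55 and 10.24 CPM. Dsp was called lower, and the other 5, Krt1, Krt5, Krt10, Krt14 and Cdh1, were not called. The part of these differences in the results on ribosomal protein genes was not tested.

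Most ribosomal protein mRNAs were moderately higher in the KO cells. Of the 88 genes, 83 had enough counts to be tested, and 53 of them (63.9%) were called higher and 11 (13.3%) lower in KO at an adjusted p under 0.05 (edgeR quasi-likelihood test, Benjamini-Hochberg adjustment over all 14579 tested genes). Many genes differed between these cells: 35.4% of all tested genes were called higher, 35.5% lower, and 71.0% in either direction. The share called higher among ribosomal protein genes was thus above that of all genes, the share called lower was below it, and the share called in either direction, 64 of 83, was close to that of all genes. The median log2 fold change, KO minus WT, was 0.36 over the 83 genes and 0.00 over all tested genes. The changes were small for this data set. Rpl3 was the one member called with an absolute log2 fold change above 1, while 26.8% of all tested genes passed that size, and 29 of the 53 rises were below 0.5 on the log2 scale. The lower and upper quartiles of the members' log2 fold changes were 0.03 and 0.51. WT and KO libraries did not overlap, with KO above, for 49 members (37.2% of all tested genes), and with KO below, for 12 members (37.1% of all tested genes), while 74.3% of all tested genes had no overlap in either direction. In bulk RNA, a difference in RNA per cell and a difference in the share of cells of 1 kind cannot be told apart.

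**Figure D1:**
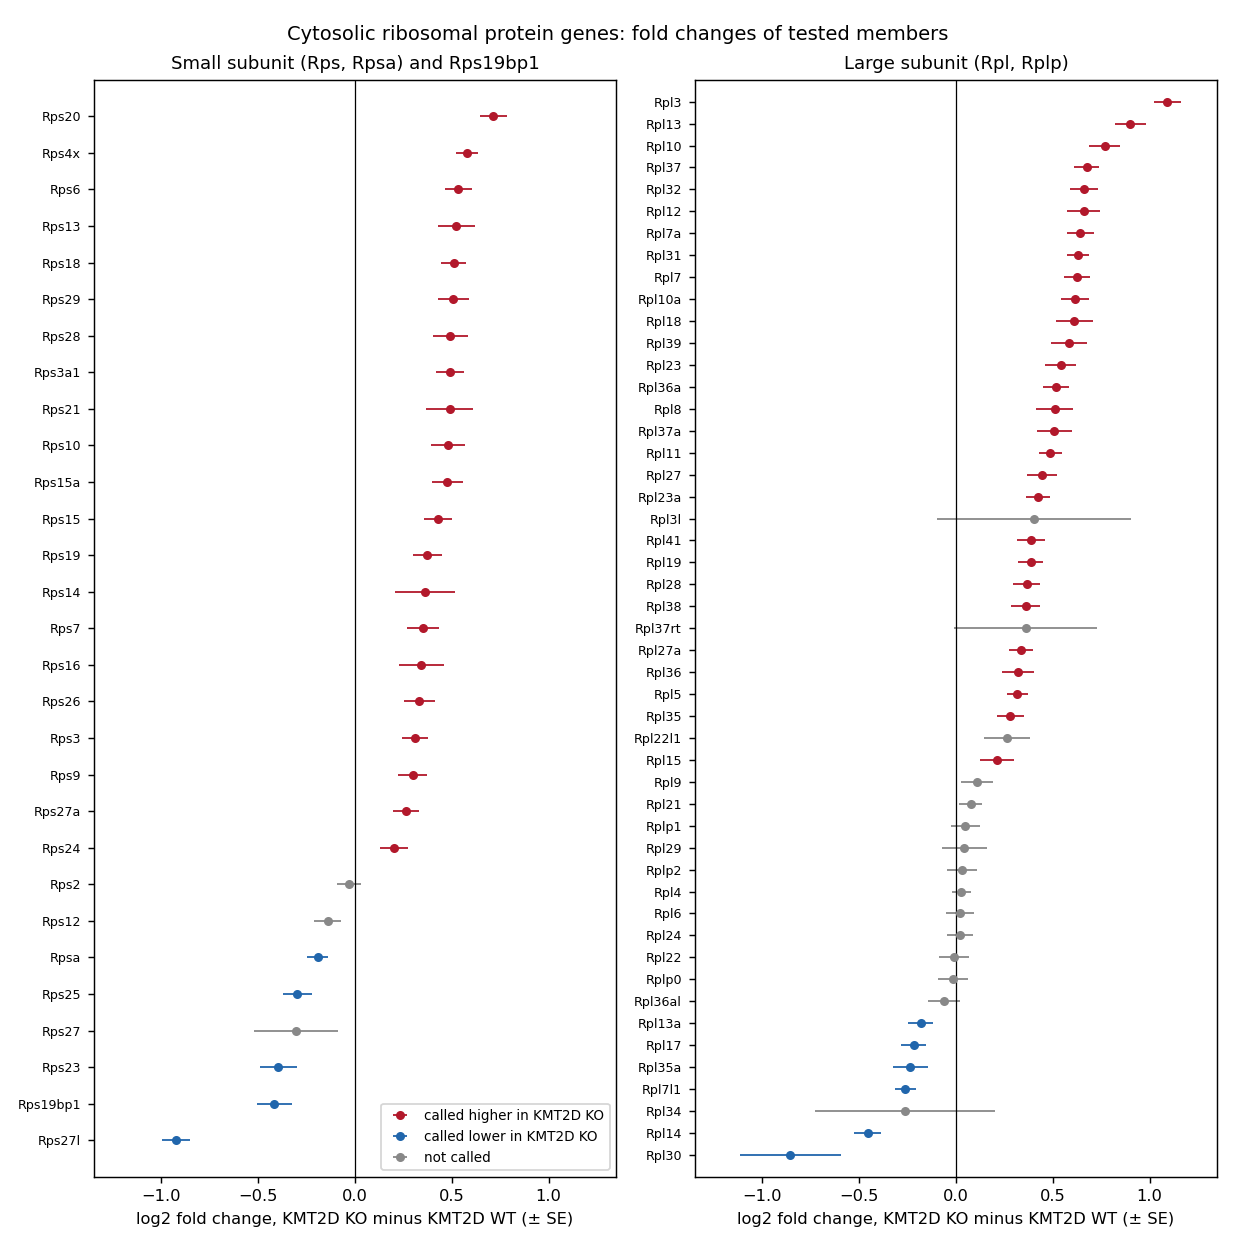
Log2 fold change (KMT2D KO minus KMT2D WT, with its standard error from the edgeR fit) of 78 of the 83 tested genes, with the 40S genes and Rps19bp1 on the left and the 60S genes on the right. Red points (49) were called higher in KO, blue points (11) lower, and grey points (18) were not called, and Rpl3 is the highest and Rps27l the lowest.

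Together the 88 genes took 2.07%, 2.09% and 1.90% of all counts in WT replicates 1, 2 and 3 and 2.36%, 2.45% and 2.09% in KO replicates 1, 2 and 3. KO replicate 3 fell just below WT replicate 2, so the groups overlapped. The means were 2.02% ± 0.105 in WT and 2.30% ± 0.189 in KO (SD, n = 3 each), and an exact two-sided permutation test gave p = 0.2, where 0.1 is the smallest value that 3 against 3 libraries allow. KO replicate 3 was the lowest KO library for 76 of the 83 tested members, and KO replicate 2 the highest for 69. In the WT group replicate 3 was the lowest library for 59 members. Most members thus shared an order of the libraries within each group. Their median deviation from the group mean ran from -0.13 to 0.10 on the log2 scale among the 6 libraries.

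The ratio between the summed counts of the 2 subunits also differed. The summed count of 60S genes divided by that of 40S genes was 1.513, 1.489 and 1.4996 in the WT libraries and 1.581, 1.591 and 1.602 in the KO libraries. All KO values lay above all WT values, with means of 1.501 ± 0.0125 and 1.591 ± 0.0105 (SD, n = 3 each; exact permutation p = 0.1, the smallest possible). This ratio is taken within a library and does not depend on scaling. It is weighted by abundant genes, and Rpsa, the 40S gene with the highest CPM, fell from a mean of 927.5 to 812.1 CPM. The part of single genes in the ratio was not tested. By counts of calls, 24 of 32 tested 40S genes (75%) were higher and 4 lower (median 0.37), and 29 of 50 tested 60S genes (58%) were higher and 6 lower (median 0.36). By these medians and calls, the 60S genes did not rise more than the 40S genes.

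**Figure D2:**
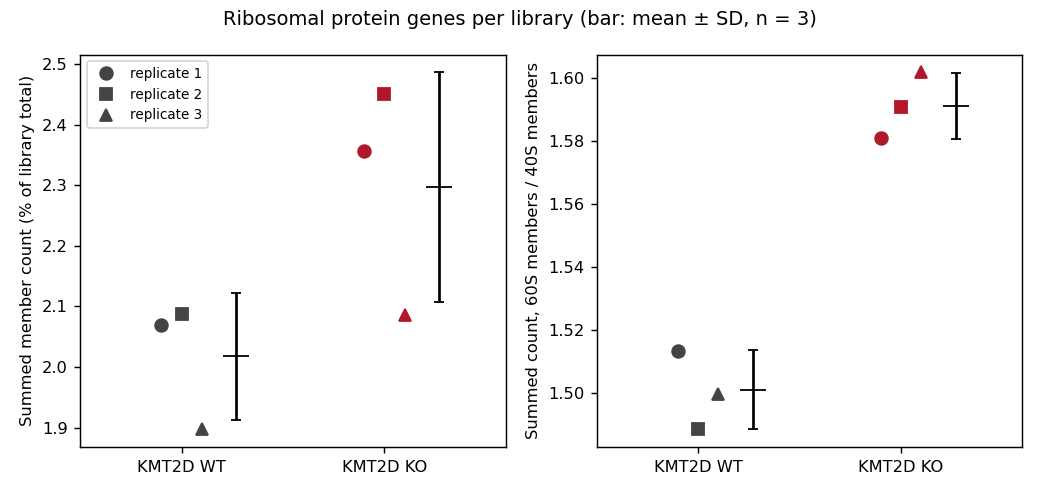
Left, summed count of the 88 genes as a percentage of the library total; right, ratio of the summed counts of 60S to 40S genes; each symbol is 1 library and the bars give mean ± SD (n = 3). The share overlaps between the groups because KO replicate 3 (2.09%) lies level with WT replicate 2, whereas the ratio is higher in each KO library.

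The largest rises were in the large subunit. Rpl3, a core 60S protein next to the peptidyl transferase centre (mm9 chr15:79908211-79913836, minus strand), was at 306, 284 and 247 CPM in WT and at 583, 615 and 587 CPM in KO. The lowest KO library was far above the highest WT library, and the difference on the log2 scale was 1.09 ± 0.068 (SE, as for all fold changes here; adjusted p = 1.8e-09, edgeR). Rpl13 was at 107, 114 and 88.8 CPM in WT and at 186, 205 and 189 CPM in KO (log2 fold change 0.90 ± 0.079, adjusted p = 8.9e-08, edgeR). The groups were well apart, and WT replicate 3 was the lowest library for both genes. Rpl10, which joins the 60S subunit late and is needed for subunit joining, was at 199, 223 and 178 CPM in WT and at 348, 369 and 308 CPM in KO (0.77 ± 0.080, adjusted p = 5.9e-07, edgeR). Rpl37 was at 150, 164 and 149 CPM in WT and at 251, 264 and 224 CPM in KO (0.68 ± 0.065, adjusted p = 2.6e-07, edgeR). Again no KO library reached down to the WT range. Rpl32, Rpl12, Rpl7a, Rpl31, Rpl7, Rpl10a, Rpl18, Rpl39, Rpl23, Rpl36a, Rpl8 and Rpl37a followed, with log2 fold changes between 0.51 and 0.66. Rpl11, Rpl27, Rpl23a, Rpl41, Rpl19, Rpl28, Rpl38, Rpl27a, Rpl36, Rpl5, Rpl35 and Rpl15 rose by 0.21 to 0.49.

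In the small subunit the largest log2 fold change was 0.72. Rps20, a protein of the 40S head, was at 168, 182 and 162 CPM in WT and at 286, 304 and 253 CPM in KO (0.72 ± 0.068, adjusted p = 2.4e-07, edgeR). It kept the order of libraries described above, with KO replicate 2 highest and KO replicate 3 lowest among the KO libraries, and had no overlap. Rps4x, encoded on the X chromosome, was at 364, 359 and 345 CPM in WT and at 539, 561 and 494 CPM in KO (0.58 ± 0.056, adjusted p = 2.6e-07, edgeR). Rps6, the 40S protein phosphorylated by the S6 kinases, was at 217, 205 and 182 CPM in WT and at 299, 307 and 268 CPM in KO (0.53 ± 0.069, adjusted p = 6.6e-06, edgeR). Rps13 was at 97.9, 104 and 75.3 CPM in WT and at 137, 140 and 121 CPM in KO (0.52 ± 0.096, adjusted p = 1.9e-04, edgeR). Its WT replicate 3 was low, yet the 3 KO libraries were above every WT library. Rps18, Rps29, Rps28, Rps3a1, Rps21, Rps10, Rps15a, Rps15, Rps19, Rps14, Rps7, Rps16, Rps26, Rps3, Rps9, Rps27a and Rps24 rose by 0.20 to 0.51. For 4 of the genes called higher, Rps14, Rps16, Rps24 and Rpl15, the libraries of the groups overlapped.

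Of the 11 genes called lower, Rps27l fell most. It encodes a close paralog of Rps27 and is a known transcriptional target of p53 (mm9 chr9:66793925-66797316, plus strand). Its level was 89.6, 78.2 and 88.2 CPM in WT and 44.8, 48.6 and 41.3 CPM in KO, which is -0.93 ± 0.073 on the log2 scale (adjusted p = 2.7e-08, edgeR). The highest KO library was far below the lowest WT library. Rpl14, a 60S protein, was at 376, 347 and 351 CPM in WT and at 274, 280 and 229 CPM in KO (-0.46 ± 0.070, adjusted p = 3.6e-05, edgeR). Rps23, which lies at the decoding centre of the 40S subunit, was at 391, 346 and 278 CPM in WT and at 262, 274 and 234 CPM in KO (-0.40 ± 0.096, adjusted p = 0.0019, edgeR). For Rps23 the lowest WT library, replicate 3, was only just above KO replicate 2. Rpsa, the 40S protein also known as the laminin receptor, was at 980, 931 and 871 CPM in WT and at 845, 810 and 782 CPM in KO (-0.19 ± 0.055, adjusted p = 0.0059, edgeR). Rps25, a 40S protein used by some viral internal ribosome entry sites, fell by 0.30 (adjusted p = 0.0021, edgeR), Rpl17 by 0.22 (adjusted p = 0.0071) and Rpl13a by 0.18 (adjusted p = 0.023). Rpl35a fell by 0.24 (adjusted p = 0.031, edgeR) and lost its call without WT replicate 1 (adjusted p = 0.10), WT replicate 2 (0.068), KO replicate 1 (0.11) or KO replicate 3 (0.15). Rpl17 lost its call without KO replicate 3 (adjusted p = 0.052). The remaining falls were those of the paralog Rpl7l1, of Rps19bp1 (-0.42 ± 0.089, adjusted p = 7.1e-04, edgeR) and of Rpl30, which was counted at a low level only.

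The stalk of the large subunit, which recruits the elongation factors, was mostly not called. Rplp0, its base, was at 831, 864 and 685 CPM in WT and at 784, 835 and 735 CPM in KO (log2 fold change -0.02 ± 0.076, adjusted p = 0.86, edgeR). Rplp1 and Rplp2, the acidic proteins that bind to Rplp0, had log2 fold changes of 0.05 ± 0.074 and 0.03 ± 0.078 (adjusted p = 0.57 and 0.74, edgeR). The groups overlapped for all 3 genes, and their signs changed with the scaling or with single libraries. The level of Rplp1 per length was 81.5% ± 6.65 of that of Rplp2 in WT and 82.2% ± 2.38 in KO (SD, n = 3 each; exact permutation p = 0.9). Rpl12, which binds beside Rplp0 at the base of the stalk, was by contrast at 302, 293 and 233 CPM in WT and at 446, 465 and 398 CPM in KO (0.66 ± 0.085, adjusted p = 6.3e-06, edgeR). Its libraries were fully apart. Other members not called were Rpl4, Rpl6, Rpl9, Rpl21, Rpl22, Rpl24, Rpl29, Rps2 and Rps12, with log2 fold changes between -0.14 and 0.11, and the low or paralogous genes described below.

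**Figure D3:**
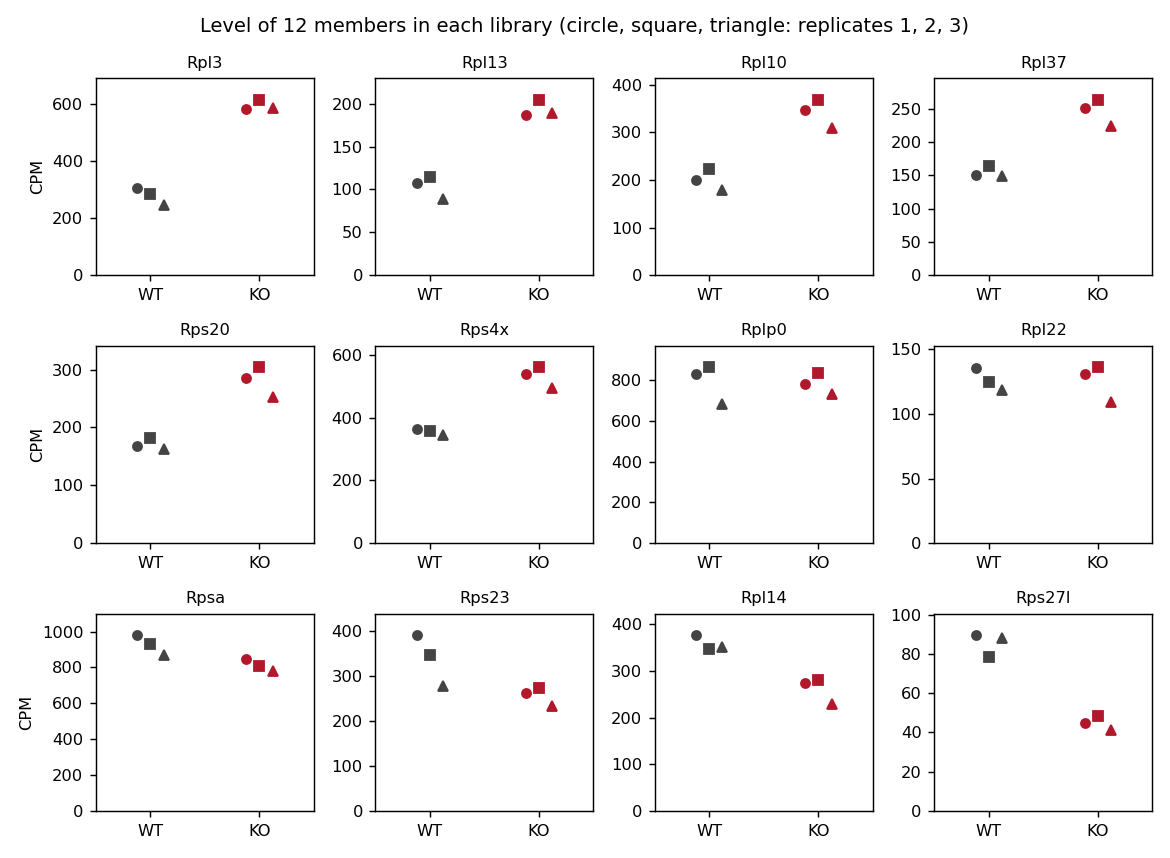
CPM (TMM-scaled, linear axes from 0) of 12 genes in each library, with WT in grey and KO in red. The 6 genes from Rpl3 to Rps4x have every KO library above every WT library, Rplp0 and Rpl22 overlap, and Rpsa, Rps23, Rpl14 and Rps27l have each KO library below each WT library.

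Both ribosomal proteins of the 5S ribonucleoprotein rose. Rpl5 was at 252, 246 and 251 CPM in WT and at 318, 326 and 288 CPM in KO (0.32 ± 0.055, adjusted p = 1.3e-04, edgeR). Rpl11 was at 188, 193 and 185 CPM in WT and at 277, 274 and 242 CPM in KO (0.49 ± 0.059, adjusted p = 3.0e-06, edgeR). The level of Rpl5 per length was 39.0% ± 1.23 of that of Rpl11 in WT and 34.7% ± 0.693 in KO, without overlap (exact permutation p = 0.1, the smallest possible). Of the 13 members known as Diamond-Blackfan anaemia genes, a group of ribosomal protein genes whose loss of 1 allele impairs red cell production in people, 12 were tested, 11 were called higher and 1, Rpl35a, lower, beside 63.9% and 13.3% of all tested members and 35.4% and 35.5% of all tested genes. Their median of 0.36 equalled that of all members. Rps19, the most often mutated of them, rose by 0.37 on the log2 scale (adjusted p = 5.1e-04, edgeR). Around the exit of the nascent chain (Rpl17, Rpl19, Rpl23a, Rpl26, Rpl31 and Rpl35), 4 of 5 tested genes were higher and Rpl17 was lower. Of 5 proteins around the mRNA entry and the 40S head (Rps2, Rps3, Rps10, Rps20 and Rps29), 4 were higher and Rps2 was not called. Both groups had 80% called higher, beside 63.9% of all tested members. They hold 5 tested genes each, were chosen after values were seen, and show no result particular to these sites. Rps27a, which is made as a fusion with ubiquitin, rose by 0.26 (adjusted p = 0.0032, edgeR).

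The paralogs were few, and their share called lower was near that of all genes. Of the 8 genes with paralog names 5 were tested, none was called higher, 2 (40%) were called lower and 3 were not called (median -0.06). Among all tested genes 35.4% were called higher and 35.5% lower. Rpl7l1, a paralog of Rpl7 that acts in the assembly of the large subunit, fell from 83.1, 82.4 and 78.6 CPM in WT to 65.4, 69.4 and 68.9 CPM in KO (-0.26 ± 0.056, adjusted p = 7.2e-04, edgeR). Rpl7 itself rose by 0.62 ± 0.068 (adjusted p = 1.0e-06, edgeR). Per length, Rpl7l1 was at 6.54% ± 0.397 of Rpl7 in WT and at 3.54% ± 0.287 in KO. Rpl36al, an autosomal copy of the X-linked Rpl36a, was at 46.7% ± 1.67 of it in WT and at 31.2% ± 1.20 in KO, since Rpl36a rose by 0.52 (adjusted p = 8.3e-06, edgeR) and Rpl36al had a log2 fold change of -0.06 ± 0.081 (adjusted p = 0.51). Rpl22l1, whose mRNA is known to be repressed by Rpl22, went the other way: it was at 49.7% ± 4.46 of Rpl22 in WT and at 60.6% ± 4.51 in KO. For these 3 pairs the libraries of the groups did not overlap (SD, n = 3 each; exact permutation p = 0.1 each, the smallest possible, 7 such ratios computed, of which 5 are at 0.1). Rpl22l1 had a log2 fold change of 0.26 ± 0.119 (adjusted p = 0.064, edgeR), from 0.165 without WT replicate 3 (adjusted p = 0.17) to 0.388 without WT replicate 1 (adjusted p = 0.010), while Rpl22 was at -0.01 ± 0.077 (adjusted p = 0.90). Rpl3l, the striated muscle form of Rpl3, was at most at 0.545 CPM in any library (0.41 ± 0.501, adjusted p = 0.48, edgeR). Its level per length was 0.113% of that of Rpl3 in WT and 0.0735% in KO, with overlap (exact permutation p = 0.4). Rpl10l, a testis form of Rpl10, had no count in any library. Rpl39l, the testis form of Rpl39, had 1 count, in KO replicate 1, and Rps4l had 0, 0 and 4 counts in WT and 1, 5 and 4 in KO, while their parents Rpl10, Rpl39 (0.58 ± 0.093) and Rps4x all rose.

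Levels between genes were compared as CPM divided by the length of the gene model in kilobases (FPKM). Among the 83 tested genes the mean level ran from 0.238 to 1007 FPKM in WT (median 254) and from 0.322 to 1267 FPKM in KO (median 312.2). Rps26 was the highest in both groups. Above 100 FPKM in both groups were 68 genes, and 5 genes were below 5 FPKM in both: Rpl3l, Rpl37rt, Rpl34, Rps27 and Rpl30. The order of the genes was nearly the same in the 2 groups, with a Pearson r of 0.987 across the 83 genes on log2 FPKM, where genes are not independent replicates.

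Low values of single genes cannot be read as low expression. The deposited counts left out fragments that match several places or several gene models, and ribosomal protein genes have many processed copies in the genome. In RefSeq GRCm38.p6, the first 25 transcribed bases of Rps27 and of its copy Rps27rt, shown here with the stretch they share in capitals, read as follows, at chr3:90213624-90213648 and chr9:114982715-114982739, both on the minus strand.
Rps27: cCTTTCCGGCGGTGACGACCTCCCT
Rps27rt: CTTTCCGGCGGTGACGACCTCCCTa
The shared stretch is 24 bases long. In the deposited mm9 annotation the Rps27rt model lies inside Rps27, so 60% of the exon bases of Rps27 and 100% of those of Rps27rt belong to both. Rps27 was listed at only 1.64 to 2.34 CPM and Rps27rt had no count in any library. Rps27 had a log2 fold change of -0.30 ± 0.218 (adjusted p = 0.23, edgeR). Other models shared 95.8% of the exon bases of Rpl26, which had no count, 76.0% of those of Rpl30, which was at 2.17, 2.41 and 1.61 CPM in WT and 1.17, 1.24 and 1.02 CPM in KO (-0.86 ± 0.259, adjusted p = 0.0085, edgeR), and 59.9% of those of Rpl34, whose partner is a row named as a pseudogene. Smaller overlaps touched Rpl5 (47.7%), Rpl31 (33.0%), Rps25 (29.4%), Rps27a (11.1%) and Rpl32 (8.3%), so their values are uncertain to that extent. Rpl37rt, a retrotransposed copy of Rpl37, was at 0.970 FPKM in WT and 1.25 FPKM in KO (0.36 ± 0.368, adjusted p = 0.40, edgeR). The fold change of Rpl30 describes the few fragments that fall outside the shared exons.

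Sequence shared with copies was common. For 86 of the 88 genes, 1 protein-coding transcript of the GENCODE M21 annotation was cut into all stretches of 50 bases. The median share of stretches found in no other gene's transcript was 38.6%, from 4.9% in Rpl35 to 100%. The chosen transcript could differ from the counted gene model, with 460 against 1361 bases for Rpl3 and 3706 against 502 for Rps20. The shares therefore describe the chosen transcripts and not the counted models. With stretches of 100 bases the median was 60.2%. For 55 genes fewer than 50% of the 50-base stretches were unique. Across the 82 tested genes with a value, this share had a Pearson r of -0.15 with the log2 fold change and -0.17 with log2 FPKM, given as a description. Among the 29 tested genes with at least 50% unique stretches, 20 were called higher and 4 lower. Rpl3 had 36% unique stretches, Rpl13 19.7% and Rpl10 9.9%, whereas Rps20 had 92.4%, Rps9 100% and Rps27l 96.8%. Genes called higher had both low and high shares. The value of Rps20 rests on the 3706-base transcript and does not describe its counted model. The part of shared sequence in the rises was not tested. The 4 genes called lower with at least 50% were the paralogs Rps27l and Rpl7l1 (87%), Rps19bp1 (100%) and Rpl14 (50.7%). All other genes called lower were under 50%.

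The TOP pattern was looked for at the starts of these genes. RefSeq promoter sequences (GRCm38.p6, 250 bases before to 50 after each start) were at hand for 67 of the 88 genes. A run of at least 8 C or T within 10 bases of the start was present in 21 of the 67 (31.3%), against 8.7% of all 27025 genes in that table, and 34.3% of members had a start at a C, against 18.9% of all genes. Runs lying mostly outside this window were missed, such as 10 bases from position -16 in Rpl13 and 14 bases from position -22 in Rps25. Whether the listed starts are those used in these cells was not tested, so genes without a counted run may still have a TOP tract. All starts printed below have a run. The starts below, from 25 bases before to the first 15 bases of the transcript, show the run in capitals for 3 genes that rose (Rps6, Rps10 and Rpl28), 2 that fell (Rpl14 and Rpl35a) and 1 that was not called (Rplp2). They lie at chr4:86857353-86857392 and chr17:27635230-27635269 (both minus strand), chr7:4792940-4792979, chr9:120571492-120571531, chr16:33056457-33056496 (1 of 3 listed starts of Rpl35a) and chr7:141447626-141447665 (plus strand).
Rps6: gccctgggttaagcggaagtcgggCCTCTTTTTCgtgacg
Rps10: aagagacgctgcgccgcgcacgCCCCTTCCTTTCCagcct
Rpl28: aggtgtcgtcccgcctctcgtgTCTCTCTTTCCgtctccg
Rpl14: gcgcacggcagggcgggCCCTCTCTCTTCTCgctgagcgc
Rpl35a: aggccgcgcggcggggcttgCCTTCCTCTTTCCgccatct
Rplp2: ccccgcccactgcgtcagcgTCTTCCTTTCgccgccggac
The run was found in 14 of 39 genes called higher, 3 of 9 called lower and 4 of 15 not called. Of other motifs searched on both strands, CCGGAAG, the core bound by ETS factors, was in 26 of the 67 members (38.8%, against 9.9% of all genes), and AAGATGGC, the core of the YY1 site, in 9.0% (3.2% of all genes). The TATA box letters TATAAA were in 10.4% (15.7% of all genes) and the E box CACGTG in 9.0% (8.1% of all genes). CCGGAAG was present in 17 of 39 genes called higher, 3 of 9 called lower and 4 of 15 not called. A match describes these letters only.

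The fold changes varied with the chromosome. All tested genes of a chromosome had medians between -0.54 on chromosome 13 and 0.42 on chromosome 6, and across the 83 members the log2 fold change had a Pearson r of 0.53 with the median of the chromosome, given as a description. Chromosome 9 holds 7 tested members, of which none was called higher and 4 (Rps27l, Rpl14, Rps25 and Rpsa) were called lower, with a median of -0.19 beside -0.30 for all genes there. Chromosome 5 holds 6, of which only Rpl5 was called (median 0.09 beside -0.36). By contrast, all 6 members on chromosome 11 and all 4 on the X chromosome were called higher, with medians of 0.40 and 0.58 beside 0.07 and 0.18 for all genes there. Of 14 members on chromosome 7, 11 were higher and Rpl13a was lower. Of the 83 members, 70 lay above the median of their chromosome, and the median difference from it was 0.34. All 53 genes called higher were among the 70. The smallest of these rises was 0.202 (Rps24), and only chromosomes 2, 6 and 8 had medians above that (0.274, 0.419 and 0.211). On the other chromosomes a higher call therefore fixed this outcome in advance. Of the 11 genes called lower, 6 lay below that median. Rps23, at -0.40 on chromosome 13, and Rpsa were thus above the median gene of their chromosome, whereas Rps27l and Rpl14 were below it. The part of chromosome-wide differences in these values was not tested further.

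**Figure D4:**
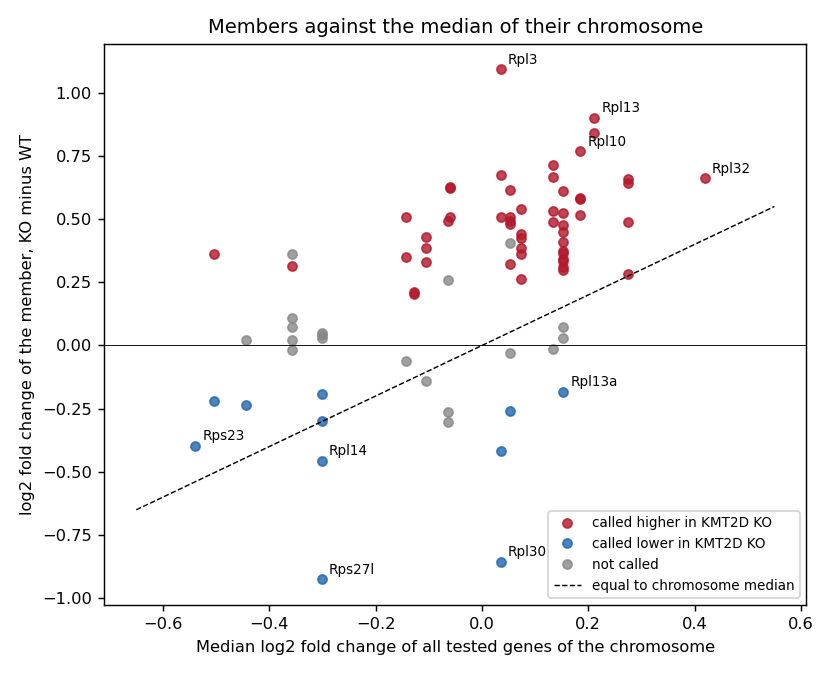
Log2 fold change of each of the 83 tested genes (vertical) against the median log2 fold change of all tested genes on its chromosome (horizontal), with the dashed line at equality; red genes were called higher in KO, blue lower, grey not called. Most points, 70 of 83, lie above the line, with Rps27l, Rpl14, Rpl13a and Rpl30 among those below it.

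Among other genes of translation the directions were mixed. The list of 43 translation factors and associated proteins had 13 genes called higher (30.2%) and 22 lower (51.2%), beside 35.4% and 35.5% of all tested genes (median -0.12). Within it, 14 genes known to have TOP mRNAs, a split made after their values were seen, had 10 higher and 2 lower (median 0.52), and the other 29 had 3 higher and 20 lower (median -0.26). Among these 14, Fau and Gnb2l1 are ribosomal proteins under other names, chosen here after their values were seen. Fau, which encodes the 40S protein eS30, was at 155, 163 and 152 CPM in WT and at 265, 274 and 232 CPM in KO (0.71 ± 0.063, adjusted p = 1.0e-07, edgeR). Gnb2l1, which encodes RACK1 of the 40S head, rose by 0.72 (adjusted p = 6.3e-07, edgeR). Both had rises within the range of the members. Eif3f, a subunit of the initiation factor eIF3, rose from a mean of 58.0 to 113 CPM (0.97 ± 0.055), and Eif4b, a cofactor of the helicase eIF4A, rose by 0.75 ± 0.049. Eif5, which triggers GTP hydrolysis on the initiator complex, fell from 227 to 105 CPM (-1.10 ± 0.054), and Eif4e, the cap-binding factor, from 191 to 91.6 CPM (-1.06 ± 0.078).

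Genes for ribosome assembly fell. Of 59 such genes 48 (81.4%) were called lower, 4 higher and 7 not called, with a median of -0.46, against 35.5% lower calls among all tested genes. Their summed level was 4255, 4039 and 4208 CPM of the unscaled total in WT and 2839, 2835 and 2730 in KO, without overlap (4167 ± 114 and 2801 ± 61.8, SD, n = 3 each; exact permutation p = 0.1, the smallest possible). Nop16, a nucleolar protein of 60S assembly, fell from 32.2 to 12.9 CPM (-1.32 ± 0.088, adjusted p = 4.1e-09, edgeR) and Heatr1, a component of the small-subunit processome, from 60.3 to 27.2 CPM (-1.15 ± 0.068, adjusted p = 1.1e-09). Gnl2, a nucleolar GTPase of 60S export, rose from 62.0 to 95.5 CPM (0.62 ± 0.068), and Nop10, of the H/ACA particle that makes pseudouridine, from 18.4 to 27.6 CPM (0.58 ± 0.119). Of 14 tested genes of RNA polymerase I and its factors, which transcribe ribosomal RNA, 3 (21.4%) were higher and 6 (42.9%) lower, beside 35.4% and 35.5% of all tested genes (median 0.00), but 5 were higher and 3 lower without WT replicate 1, and 3 were lower without KO replicate 1. Rrn3, the factor that brings the polymerase to the ribosomal DNA promoter, fell from 161 to 82.0 CPM (-0.97 ± 0.056), and Taf1d, of the promoter factor SL1, fell by 0.84 ± 0.077. Cd3eap, a subunit of the polymerase, rose by 0.46 ± 0.077 and Taf1b, another SL1 subunit, by 0.45 ± 0.110. Of 11 host genes of small nucleolar RNAs 8 (72.7%) were lower and 1 (9.1%) higher, beside 35.5% and 35.4% of all tested genes (median -0.62). Snhg4 fell by 1.85 ± 0.147 and Snhg8 by 1.14 ± 0.123, while 1500012F01Rik, the older symbol of Zfas1, rose by 0.75 ± 0.094. Gas5, which has a TOP mRNA, was at 174 CPM in WT and 180 CPM in KO (0.05 ± 0.055, adjusted p = 0.45, edgeR, chosen after its value was seen). The host genes were not split by TOP mRNAs, so Gas5 does not stand for the TOP transcripts among them. Snhg1, for example, fell by 0.72 (adjusted p = 1.2e-06, edgeR).

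**Figure D5:**
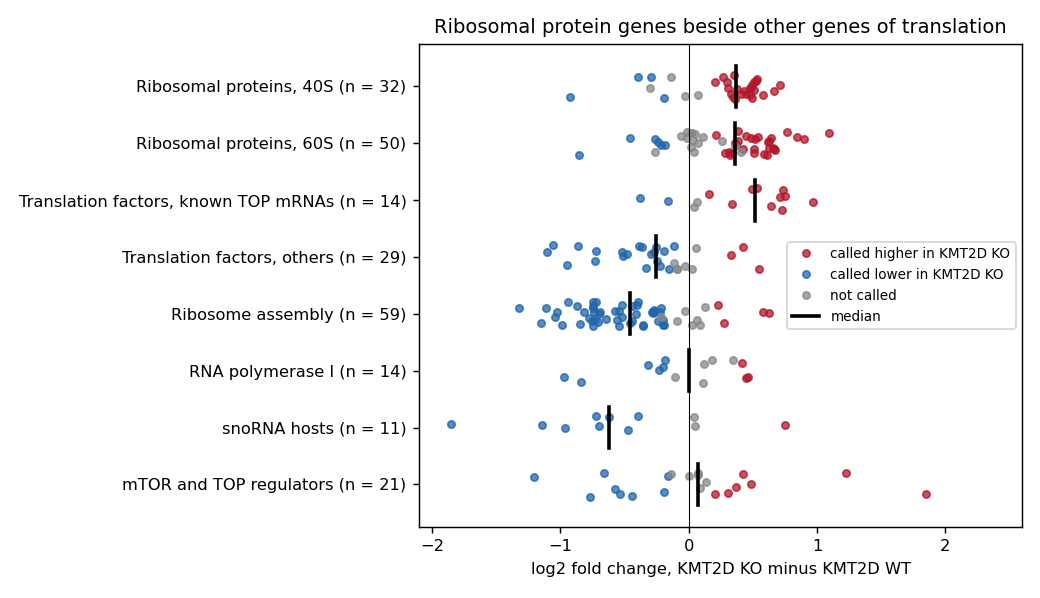
Log2 fold change (KMT2D KO minus KMT2D WT) of each tested gene in the 40S and 60S groups and in the lists of other translation genes, 1 point per gene, with the median as a black bar; red genes were called higher, blue lower, grey not called. The 40S and 60S genes and the translation factors with TOP mRNAs lie mostly right of 0 (medians 0.37, 0.36 and 0.52), and the ribosome assembly genes and snoRNA hosts mostly left of it (medians -0.46 and -0.62). Only the translation factor list was split by TOP mRNAs.

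Of 21 tested genes of the mTOR pathway and of TOP mRNA control, 7 (33.3%) were higher and 8 (38.1%) lower, near the 35.4% and 35.5% of all tested genes (median 0.07). Mtor itself (0.13 ± 0.060, adjusted p = 0.059), Larp1 (0.07 ± 0.068, adjusted p = 0.37), Myc (0.08 ± 0.076, adjusted p = 0.39) and the S6 kinase gene Rps6kb1 (0.00 ± 0.054, adjusted p = 0.97) were not called by the edgeR test and were chosen after their values were seen. Pdcd4, an inhibitor of eIF4A that S6 kinase marks for degradation, rose from 41.8 to 97.6 CPM (1.23 ± 0.080). Larp4b, an RNA-binding protein that stabilises mRNAs, fell from 149 to 87.4 CPM (-0.77 ± 0.063). These are RNA levels, and neither translation nor the phosphorylation of mTOR targets was measured.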

How the data were processed

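Per the file headers, the authors counted fragments per gene over exons with featureCounts 1.5.2, and these raw counts were used as deposited. The submitters' processing notes name STAR, HTSeq and the build mm9, without roles or versions. The recorded command set no strand option and none for fragments with several matches or genes, which featureCounts leaves out by default. The Length column of the deposited files gave exon length in bases. No library was left out or pooled.

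All 6 libraries were tested with edgeR 4.0.16 in R 4.3.3 (TMM scaling, default low-count filter, quasi-likelihood F test, group only, Benjamini-Hochberg adjustment over 14579 genes, called under 0.05). The standard error is the log2 fold change divided by the square root of F. Sums and ratios per library were compared by exact two-sided permutation tests. Exon overlap came from the deposited gene models, unique sequence from GENCODE M21 transcripts (GRCm38), and start sequences from RefSeq GRCm38.p6, used by gene symbol and without converting coordinates. The scripts were tested on simulated data.

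The members and lists were chosen with earlier results of these data known. The 10 lists held 201 genes, of which 200 were found, 2 under an older symbol. The text names Kmt2d, the paralogs and their parents, Rps19bp1, Rpl5, Rpl11, Rpsa, Rplp0, Rplp1, Rplp2, Rps6, Rps19, Rps27a, the genes that failed the filter, up to 5 rises and 5 falls per subunit and 2 per list among called genes at 1 CPM or more. Some genes that this rule took are not reported. Other genes and the groups by role were chosen after values were seen. Libraries of 1 group differed from each other by more than sampling noise (chi-square per degree of freedom from 11.4 to 25.6). Alternatives were RLE size factors, library size alone, TMM without the members, DESeq2 1.42.0, voom of limma 3.58.1, other low-count filters, a replicate block, leaving out each library, and leaving out paralogs. Those chosen after seeing the data were centring on the chromosome, members with mostly unique sequence, and the share from scaled sizes.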

Additional observations from a re-analysis of the deposited data

How the results depend on the processing

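The count of members called higher (53) was between 48 and 55 under the other scalings, tools and filters, and between 49 and 54 with 1 library left out. The count called lower (11) was between 10 and 12, and between 8 and 11 with 1 library left out. Restriction to members with at least 50% unique 50-base stretches, an alternative chosen after seeing the data, left 20 and 4 of 29, since fewer genes were counted. The median was 0.25 with library size alone, which moved the median of all genes from 0.00 to -0.11 and their calls from 5164 higher and 5181 lower to 4415 and 5987. Without 1 library the members' median ran from 0.31 to 0.435, and centred on chromosomes, chosen after seeing the data, it was 0.344. The difference in the share of counts ran from 0.203 to 0.385 percentage points with 1 library left out. The difference in the 60S to 40S summed count ratio (0.0906) was 0.0697 from counts per kilobase. Ribosome assembly genes called higher numbered 2 with library size alone. RNA polymerase I genes called higher numbered 3 to 5, and lower 3 to 6, with 1 library left out (5 and 3 without WT replicate 1, 3 lower without KO replicate 1). Kmt2d ranged from -0.34 to -0.17 with 1 library left out and was at -0.21 (adjusted p = 0.058) without KO replicate 2. With library size alone Rplp1 and Rplp2 were at -0.062 and -0.079 and Rps27a lost its call (0.15, adjusted p = 0.064), and with 1 library left out they ranged from -0.028 to 0.119 and from -0.042 to 0.124, both negative without WT replicate 3. Without a low-count filter Rpl22 and Rplp0 were at 0.019 and 0.014. With 1 library left out Rpl22 ranged from -0.061 to 0.088 (positive without WT replicate 1 or KO replicate 3), Rplp0 from -0.108 to 0.052 (positive without WT replicate 1, WT replicate 2 or KO replicate 3) and Rpl36al from -0.111 to 0.035 (positive without KO replicate 3). Rpl35a lost its call without a filter (adjusted p = 0.053), where Rpl22l1 gained one (0.018). The cause of these changes was not tested. Of the alternative values for single named genes, 733 kept direction and side of the threshold, 12 reversed, 3 gained and 7 lost the call.

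The replicate numbers are shared between the groups, and whether they pair the samples could not be decided. Same-numbered libraries correlated at 0.006, 0.067 and 0.047 in their deviations from the group means. WT replicates 2 and 3 correlated best with the KO library of the same number, and WT replicate 1 with KO replicate 2 (0.035). With 3 libraries a group, such values can neither show nor exclude pairing or a shared batch. Replicate 3 had the lowest total count in both groups. With the replicate number as a block, 54 members were called higher and 12 lower, the median was 0.363, and Rpl22l1 passed the threshold (adjusted p = 0.040).

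With 3 libraries a group, permutation tests cannot go below 0.1, and members with shared sequence or exons are counted incompletely.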

Other observations

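The 6 rows named as pseudogenes of ribosomal proteins, which are not among the 88 genes, were at or near 0. Rps19-ps3 (0.549 CPM in WT replicate 2, 0.847 in KO replicate 2) and Rpl14-ps1 (0.953 in WT replicate 2) passed the low-count filter, with log2 fold changes of 0.24 ± 0.438 and -0.50 ± 0.399 (adjusted p = 0.64 and 0.27, edgeR). Rpl34-ps1 had no count, and Rpl31-ps12 had none in WT and 2, 1 and 3 counts in KO. Neither of these 2 rows was called.

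Of 10 ribosomal S6 kinase genes in the files 9 were tested, and 3 (33.3%) were called higher and 2 (22.2%) lower, beside 35.4% and 35.5% of all tested genes. Rps6ka1, a kinase downstream of ERK, was at 5.51, 4.94 and 4.94 CPM in WT and at 18.9, 18.1 and 18.5 CPM in KO (1.85 ± 0.101, adjusted p = 3.6e-10, edgeR). Its relative Rps6ka2 was at 37.6, 39.2 and 38.1 CPM in WT and at 15.9, 15.7 and 18.4 CPM in KO (-1.20 ± 0.081, adjusted p = 4.1e-09, edgeR). Libraries of the groups were far apart for both. Rps6kb2, an S6 kinase of the mTOR pathway, rose by 0.48 (adjusted p = 1.0e-04), Rps6ka3 rose by 0.20 (adjusted p = 0.022), and Rps6ka5 fell by 0.71 (adjusted p = 4.1e-04), all by edgeR.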
